A study of Mus musculus with 9 samples.

Results

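The comparison described here set 3 RORγt knockout (RORγt KO) arrays against 3 wild-type (WT) arrays, 6 of the 9 arrays of a study of mouse T cells cultured under Th17-inducing conditions. The remaining 3 arrays were of an SRG3 conditional knockout (SRG3 cKO, SRG3-deficient), whose missing protein is a subunit of Swi/Snf, a chromatin remodelling complex. The 6 arrays were chosen by their labelled genotype alone, and the comparison runs over the 22180 genes that had a probe set with a single gene symbol. Sorting on CD4+CD25-CD44low CD62Lhigh gave naive T cells from spleen, which spent 60 h on plate-bound antibodies to CD3 and CD28 (10 µg/ml each) with TGF-β1 at 1 ng/ml, IL-6 (30 µg/ml in the labels) and blocking antibodies to IL-4 and IFN-γ at 2 µg/ml each. All groups shared this culture and differed, as far as the labels say, in genotype. Arrays of a genotype are labelled as biological replicates. The labels give no allele, strain, age or sex, no driver of the deletion in the SRG3 cKO, and no number of mice behind an array. P-values therefore measure the spread between these arrays.

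RORγt is a nuclear receptor that acts as the lineage-defining transcription factor of Th17 cells, the helper T cells that make IL-17A and IL-17F. Cytokine signals through IL-6 and STAT3 together with TGF-β bring a naive CD4 T cell to express it, and it then binds ROR response elements, short DNA stretches built around the half-site AGGTCA, near genes of the Th17 programme. IL-23 and IL-1 receptors, the chemokine receptor CCR6 and the IL-17 cytokines are among the products for which Th17 cells are known, while IL-12 receptor β2, T-bet and IFN-γ belong to the alternative Th1 fate and Foxp3 to regulatory T cells.

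Among the largest falls described below, Il17a, Il23r and Il17f held the half-site in the 250 bases before the annotated start, and these windows are shown. Il1r1 and Furin, the next largest falls, held no match in their windows, which are not shown. Each window shown runs 5′ to 3′ along the strand of its gene and ends at the base before the start. AGGTCA or its reverse complement TGACCT is in capitals. The windows are from RefSeq, build GRCm38.p6: Il17a on the plus strand at chr1:20730655-20730904, Il23r on the minus strand at chr6:67491856-67492105 and Il17f on the minus strand at chr1:20784271-20784520.
Il17a: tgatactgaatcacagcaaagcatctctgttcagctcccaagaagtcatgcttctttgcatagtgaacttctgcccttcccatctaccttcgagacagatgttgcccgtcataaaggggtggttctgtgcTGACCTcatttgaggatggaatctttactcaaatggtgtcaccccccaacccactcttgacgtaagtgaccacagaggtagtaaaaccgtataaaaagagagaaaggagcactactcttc
Il23r: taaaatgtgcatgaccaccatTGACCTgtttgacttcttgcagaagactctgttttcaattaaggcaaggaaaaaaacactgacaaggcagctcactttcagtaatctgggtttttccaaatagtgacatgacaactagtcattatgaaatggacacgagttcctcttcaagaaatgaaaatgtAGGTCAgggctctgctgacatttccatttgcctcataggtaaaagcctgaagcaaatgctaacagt
Il17f: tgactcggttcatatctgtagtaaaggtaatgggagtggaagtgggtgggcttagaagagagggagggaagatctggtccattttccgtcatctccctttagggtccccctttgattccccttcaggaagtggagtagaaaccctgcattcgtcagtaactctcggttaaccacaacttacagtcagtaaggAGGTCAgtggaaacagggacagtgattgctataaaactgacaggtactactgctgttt

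The half-site was counted over all promoters as background. Searched on both strands over 300 bases (250 before to 50 after the start), AGGTCA was found in 14.5% of the 20611 promoters of tested genes, in 12.8% of the 78 promoters of genes that fell in RORγt KO cells and in 14.6% of the 144 promoters of genes that rose. The longer forms TAGGTCA or TGGGTCA, of which TAGGTCA contains AGGTCA, stood in 5.96% of the promoters of tested genes, 12.8% of those of genes that fell and 4.86% of those of genes that rose. Of the 20 genes with the largest falls, 15 had a promoter in the table, and 4 of these genes held AGGTCA: Il17a, Il23r, Il17f and Ccr6. Of the 20 largest rises, 12 had one and 1 held it. A match describes the letters in this window and is neither a binding site nor a cause, and windows without a match say nothing of distant elements.

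RNA of all cultures was hybridised to whole-transcript arrays, and the deposited values are log2 intensities per probe set. Array medians lay between 7.12 and 7.14, so the arrays were on a common scale. Depth has no meaning for arrays, and their number limits the precision. The median standard error of a log2 change was 0.05. Along the first principal component of the 6 arrays, which held 44.4% of the variance, the WT arrays 1, 2 and 3 stood at -2.133, -10.626 and -12.135 and the RORγt KO arrays at 9.354, 12.154 and 3.387. WT array 1 and RORγt KO array 3 thus lay nearest to the other genotype. The first of these also stood apart on the second component, at 11.185 against -4.847 to 3.798 for the others. The average level of 25 glycolysis and hypoxia genes was 10.22 in that array against 9.99 and 9.95 in WT arrays 2 and 3, and 10.26, 10.20 and 10.10 in RORγt KO arrays 1, 2 and 3, and the part of this in the results was not tested. The transcript of the targeted gene is not analysed here, so the genotype rests on the labels. T cell markers were high in every array: Cd4 read 11.50, 11.09 and 11.12 in WT and 11.47, 11.27 and 11.33 in RORγt KO arrays, and Cd3e 11.59, 11.20 and 11.31 against 11.69, 11.48 and 11.46, with overlapping groups in both cases.

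RORγt KO cultures had far lower levels of a few Th17 genes, while other changes, up or down, were smaller. With limma, a linear model with moderated variances fitted to all 9 arrays, and Benjamini-Hochberg adjustment over all genes at a threshold of 0.05, 230 genes changed (1.04% of those tested), of which 154 rose (0.694%) and 76 fell (0.343%). At least 2-fold changes numbered 7 falls and 3 rises, and at least 1.5-fold changes 21 falls and 43 rises. The median change was -0.40 on the log2 scale among genes that fell and 0.41 among those that rose, against -0.0027 over all genes. Leaving out WT array 1, 2 or 3 gave 322, 45 or 65 changed genes, leaving out RORγt KO array 1, 2 or 3 gave 46, 47 or 165, and leaving out SRG3 cKO array 1, 2 or 3, which enter through the shared spread, gave 153, 130 or 119. With WT array 1 and RORγt KO array 3 both left out, 450 genes changed, 161 of the 230 among them, and in a fit of the 6 arrays alone 43. Rises did not outnumber falls in every fit: there were 21 rises and 22 falls in the 6 arrays alone, 23 and 24 without RORγt KO array 2, and 1349 and 1472 at an unadjusted p under 0.05. The arrays of the genotypes did not overlap in any of the 230 genes, nor in 3161 of all 22180 genes, so absence of overlap alone is common. Of the 20 largest falls 14 passed in every one of the 9 fits, of the 20 largest rises 6. Over all 230, 34 did so, 18 that fell and 16 that rose, and all 230 kept their sign under the 22 alternatives tried.

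**Figure D1:**
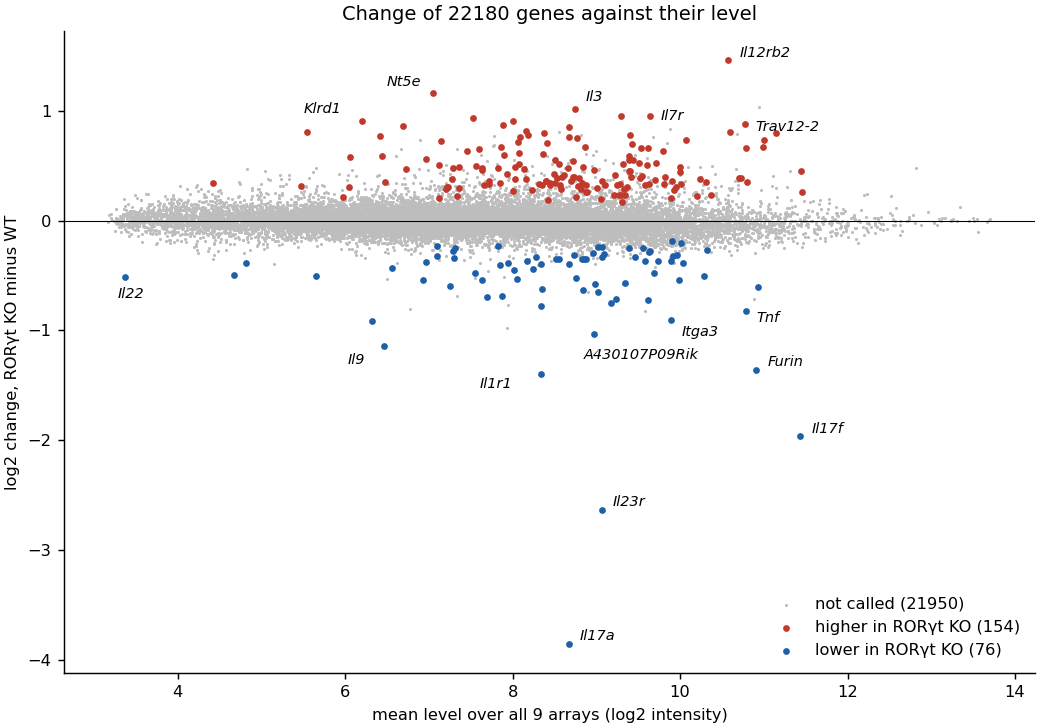
Log2 change between RORγt KO and WT (y axis, log2 units) against the mean level over all 9 arrays (x axis, log2 intensity) for 22180 genes, with 154 that rose in red, 76 that fell in blue and the others in grey. Il17a, Il23r and Il17f lie far below the cloud, and the rises reach 1.46 with Il12rb2.

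Cytokine genes that define Th17 cells fell, and Il17a had the largest fall of any gene. Il17a, which encodes IL-17A, read 11.14, 10.09 and 10.83 in WT arrays 1 to 3 and 7.04, 6.74 and 6.72 in RORγt KO arrays. The highest knockout array thus lay over 3 log2 units below the lowest WT array, and the knockout mean of 6.83 was below the median of all probe sets (7.13). That difference was 14.5-fold (log2 change of -3.85 with an SE of 0.22, adjusted p = 0.000143, n = 3 in each group). Il17f, its neighbour and partner in the IL-17A/F heterodimer, read 12.38, 12.05 and 12.68 against 10.49, 10.48 and 10.25, a 3.91-fold fall (-1.97, SE 0.14, adjusted p = 0.000213). In bulk samples such as these, fewer cells of a type and less RNA per cell cannot be told apart.

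Of the 20 effector cytokine and chemokine genes listed for Th17 cells, 7 fell and none rose, with a median change of -0.11. Over all genes tested 0.343% fell and 0.694% rose, and these shares are the background for each list count below. The count for the list was 3 to 6 when single arrays were left out. This list and those below were chosen with earlier results of these data known, so their counts and medians are descriptions without a test. Il9, a cytokine gene shared with Th9 cells, read 7.27, 6.74 and 7.23 in WT and 6.01, 5.66 and 6.15 in knockout arrays, a 2.20-fold fall (-1.14, SE 0.15, adjusted p = 0.0129). The neutrophil-attracting chemokine gene Cxcl3 read 6.56, 6.49 and 6.58 against 5.52, 6.03 and 5.34 (-0.91, SE 0.16, adjusted p = 0.0331). Of the 9 fits with 1 array left out, Cxcl3 passed in 2 and Il9 in 6. Tnf, for the inflammatory cytokine TNF, was bright and fell 1.77-fold, from 10.97, 11.08 and 11.08 to 10.23, 10.06 and 10.38 (-0.82, SE 0.08, adjusted p = 0.00135). Next to it in the genome, Lta, for lymphotoxin α, fell by 0.47 (adjusted p = 0.0379) but passed in 0 of those 9 fits (adjusted p = 0.14 in the 6 arrays alone). Il22, for a cytokine that acts on epithelia, fell by 0.51 (adjusted p = 0.0144) at levels of 3.15 to 3.83, within the lowest 0.207% of genes by mean.

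Other cytokine genes of Th17 cells did not pass. Il21, for the cytokine that sustains Th17 cells, read 11.55, 11.25 and 11.44 in WT and 11.52, 11.28 and 11.43 in knockout arrays, a change of 0.00 with a 95% interval of -0.20 to 0.19. Csf2, for GM-CSF, was lower at 7.36, 7.1 and 6.85 against 8.22, 7.70 and 7.44 in WT, and its groups did not overlap, yet it missed the threshold (-0.68, SE 0.20, adjusted p = 0.187). Il10, for the anti-inflammatory cytokine IL-10, was higher at 7.39, 6.83 and 7.17 against 6.74, 6.18 and 6.53 in WT (0.65, SE 0.16, adjusted p = 0.127). Ccl20, for the ligand of CCR6, was at -0.18 (interval -0.41 to 0.05). The interval of Il21 excludes a change of the size seen for Il17f, while those of Csf2 (-1.13 to -0.24) and Il10 (0.28 to 1.02) lie on one side of 0.

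**Figure D2:**
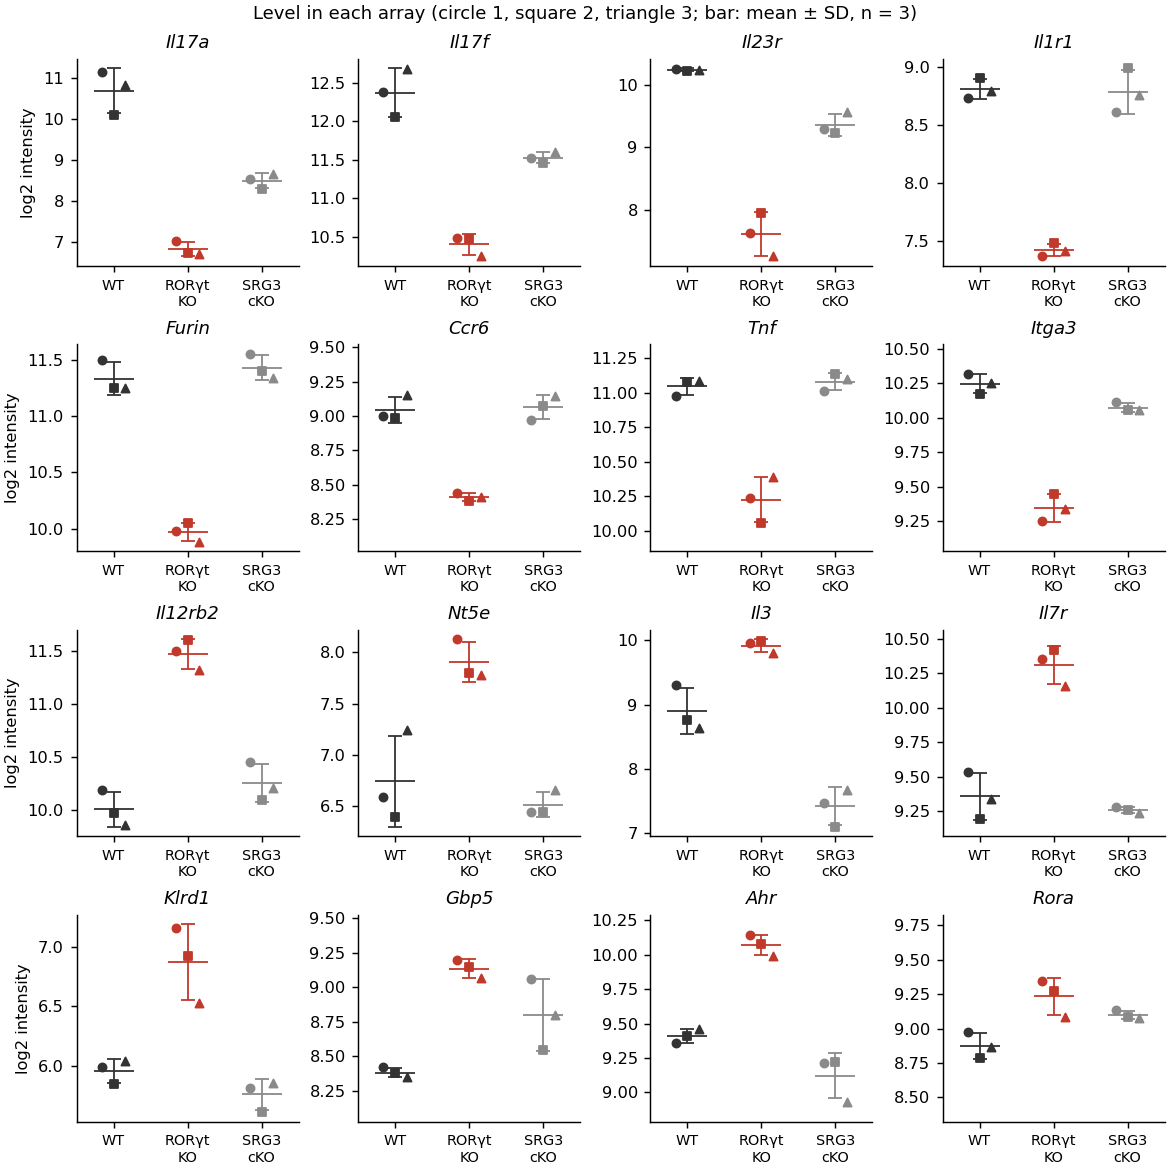
Log2 intensity (y axis) in each array for 16 genes named in the text, by genotype (x axis), with circles, squares and triangles for arrays 1, 2 and 3 and bars for the mean ± SD (n = 3); y axes differ between genes and do not start at 0. The RORγt KO arrays lie apart from the WT arrays in all 16 panels, while the SRG3 cKO arrays take intermediate values for Il17a, Il17f and Il23r and values near WT for Il1r1, Furin, Ccr6 and Tnf.

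Receptors by which Th17 cells sense IL-23 and IL-1 fell alongside the cytokines. Il23r, for the specific subunit of the IL-23 receptor, read 10.26, 10.21 and 10.24 in WT and 7.63, 7.95 and 7.25 in knockout arrays. The WT arrays were nearly equal, and the spread lay in the knockout. Its fall was 6.20-fold (-2.63, SE 0.15, adjusted p = 0.000143). Il12rb1, for the subunit shared by the IL-23 and IL-12 receptors, fell by 0.34 (SE 0.05, adjusted p = 0.022), from 9.58, 9.61 and 9.55 to 9.19, 9.36 and 9.18. In the opposite direction Il12rb2, for the IL-12-specific subunit of Th1 cells, rose from 10.19, 9.98 and 9.86 to 11.49, 11.59 and 11.32, which at 2.75-fold was the largest rise of any gene called (1.46, SE 0.11, adjusted p = 0.000382). Il1r1, the signalling IL-1 receptor, read 8.74, 8.91 and 8.79 against 7.37, 7.48 and 7.41, a 2.63-fold fall (-1.40, SE 0.09, adjusted p = 0.000143).

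Of 20 receptor and surface genes listed for Th17 cells 7 fell and 2 rose, and 5 to 9 were called when single arrays were left out. Called members made up 45.0% of this list, against 1.04% over all genes. Furin, for the proprotein convertase that matures TGF-β1 among other substrates, read 11.50, 11.25 and 11.24 in WT and 9.98, 10.05 and 9.89 in knockout arrays (-1.36, SE 0.08, adjusted p = 0.000143). It was the single one of 26 genes for TGF-β ligands, receptors and responses that was called, and Tgfb3, for a TGF-β isoform, was the next in size at 0.41 (adjusted p = 0.127). Ccr6, which guides Th17 cells toward CCL20, read 9.0, 8.98 and 9.16 against 8.44, 8.38 and 8.42 (-0.63, SE 0.06, adjusted p = 0.00135). Smaller falls were those of the gene Cd5l, which in Th17 cells affects lipid metabolism (-0.54, adjusted p = 0.0212), and Plxnd1, a semaphorin receptor gene (-0.48, adjusted p = 0.0319), which passed in 6 and 3 of the 9 fits without 1 array. Il21r, for the receptor of IL-21, rose by 0.35 (adjusted p = 0.0202), from 10.15, 10.28 and 10.25 to 10.54, 10.64 and 10.54.

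Other large falls lay outside the classical Th17 genes. Itga3, for the laminin-binding integrin α3, read 10.32, 10.17 and 10.26 in WT and 9.25, 9.45 and 9.34 in knockout arrays (-0.90, SE 0.06, adjusted p = 0.000143). With Itgal, for the αL chain of LFA-1 (-0.26, adjusted p = 0.0312, 1 of 9 fits), it was 1 of 2 changed among 25 integrin and adhesion genes. Galnt3, for an enzyme that starts O-glycans, fell from 8.75, 8.69 and 8.75 to 8.07, 7.96 and 7.84 (-0.77, SE 0.06, adjusted p = 0.000391). Cpd, for carboxypeptidase D, which trims the basic residues left by convertases such as furin, fell from 11.25, 11.17 and 11.30 to 10.72, 10.48 and 10.70 (-0.61, SE 0.06, adjusted p = 0.00334). Tspan6, a tetraspanin gene, fell from 9.79, 9.79 and 9.86 to 9.04, 9.15 and 9.07 (-0.72, SE 0.05, adjusted p = 0.000143), and the insulin-like growth factor binding protein gene Igfbp7 from 8.09, 8.12 and 8.18 to 7.42, 7.36 and 7.52 (-0.70, SE 0.06, adjusted p = 0.00135). Itga3, Galnt3, Cpd, Tspan6 and Igfbp7 passed whichever array was left out.

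The remaining large falls were less secure. Pdgfb, for a platelet-derived growth factor chain, was at -0.75 (adjusted p = 0.0397) with knockout arrays at 8.91, 8.41 and 8.96 and passed in 1 of the 9 fits. The uncharacterised AI504432 was at -0.65 (adjusted p = 0.0396) and passed in 2. Crtam, an adhesion receptor gene of activated T cells, fell by 0.62 (adjusted p = 0.025), from 8.47, 8.82 and 8.76 to 7.95, 8.08 and 8.17, and passed in 4. Mast4, for a microtubule-associated kinase, fell by 0.68 (adjusted p = 0.0112), passed in 6, and was at -0.39 when its 2 probe sets were averaged. A430107P09Rik, a gene with no assigned function, fell by 1.03 (SE 0.07, adjusted p = 0.000143), from 9.45, 9.23 and 9.23 to 8.33, 8.26 and 8.22. It passed in all 9 fits, and the mean of its 2 probe sets was at -0.68.

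**Figure D3:**
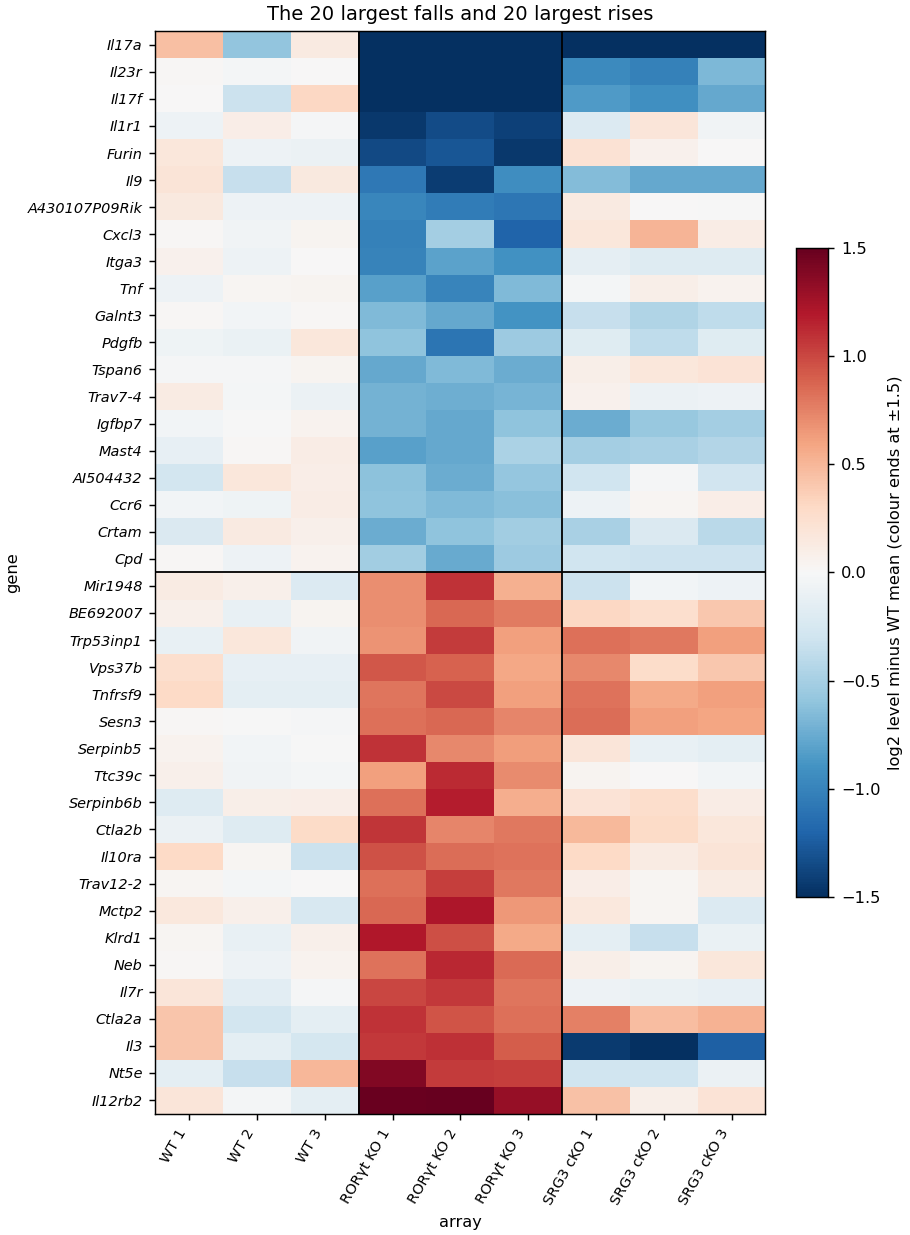
Log2 level of each array minus the WT mean (colour, ending at ±1.5 log2 units) for the 20 largest falls and 20 largest rises in RORγt KO (rows) over the 9 arrays (columns). The 3 RORγt KO columns are blue for the falls and red for the rises throughout, WT 1 is tinted toward red in several rises such as Ctla2a and Il3, and the SRG3 cKO columns are dark blue for Il17a, Il23r, Il17f and Il3.

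Of 22 listed transcription factors of Th17 cells, 4 rose (18.2%, against 0.694% over all genes) and none fell, with a median change of 0.07. With single arrays left out 1 to 4 were called. Ahr, for the aryl hydrocarbon receptor, read 9.36, 9.41 and 9.46 in WT and 10.14, 10.08 and 9.99 in knockout arrays, a 1.58-fold rise (0.66, SE 0.08, adjusted p = 0.00603) that passed whichever array was left out. Of 12 genes of its receptor pathway, 6 were above 0 and 6 below, with a median of -0.01. Called lower were its targets Il22, within the lowest 0.207% of genes by mean, and Cyp1a2 (-0.23, adjusted p = 0.05, 1 of 9 fits). Rora, for the related receptor RORα, read 8.97, 8.78 and 8.87 against 9.35, 9.27 and 9.08 (0.36, SE 0.07). Its adjusted p of 0.05 lay just under the threshold and was 0.19 in the 6 arrays alone, and it passed in 2 of the 9 fits. Hif1a, for the hypoxia-inducible factor 1α (0.26, adjusted p = 0.0421, 1 of 9 fits), and Nfil3, a basic leucine zipper repressor gene (0.37, adjusted p = 0.014, 6 of 9 fits), rose too.

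Stat3, Irf4, Batf and Maf, which act with RORγt in Th17 cells, did not pass. Stat3 was at 0.17 (interval 0.02 to 0.31), Irf4 at 0.08 (-0.05 to 0.20), Maf at 0.12 (-0.15 to 0.40) and Batf at -0.25 (-0.39 to -0.11, adjusted p = 0.131). Batf read 8.90, 9.03 and 8.93 in WT and 8.74, 8.73 and 8.64 in knockout arrays, without overlap. Among 25 genes for lineage, Egr, Id and E protein factors 3 fell (12.0%, against 0.343% over all genes) and none rose. Id3, for an inhibitor of E proteins, fell from 8.04, 8.23 and 8.10 to 7.74, 7.66 and 7.62 (-0.45, SE 0.08, adjusted p = 0.0308), Id2, its relative, from 10.13, 10.07 and 10.13 to 9.80, 9.80 and 9.78 (-0.32, SE 0.04, adjusted p = 0.014), and the T cell receptor response gene Egr2 by 0.29 (adjusted p = 0.0436). These calls rested on few arrays: with single arrays left out 0 to 3 of the list passed, and with WT 1 and RORγt KO 3 both left out 0.

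Master regulators of the other helper fates did not pass the test. Tbx21, for the Th1 factor T-bet, read 8.17, 8.37 and 8.39 in WT and 8.28, 8.29 and 8.47 in knockout arrays, with overlapping groups and a change of 0.04 (interval -0.15 to 0.22). Ifng, the Th1 cytokine gene, lay at 6.36 to 6.42 in all 6 arrays. Gata3, for the Th2 factor, was at 0.22 (0.07 to 0.38, adjusted p = 0.222), Il4 at 0.02 (-0.06 to 0.10) and Bcl6, for the follicular helper factor, at -0.23 (-0.47 to 0.01). Foxp3, for the regulatory T cell factor, read 7.22, 7.21 and 7.13 against 7.52, 7.64 and 7.33, which did not overlap but missed the threshold (0.31, SE 0.08, adjusted p = 0.138).

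Some effector genes tied to those fates rose. Of 28 Th1 and cytotoxic genes 5 rose (17.9%, against 0.694% over all genes) and none fell, with a median of 0.11. With single arrays left out 1 to 4 were called, and in the 6 arrays alone 0. Klrd1, for the killer receptor subunit CD94, read 5.99, 5.84 and 6.04 in WT and 7.16, 6.92 and 6.53 in knockout arrays (0.91, SE 0.14, adjusted p = 0.0202). Gzmb, for the protease granzyme B, read 8.53, 8.59 and 8.31 against 9.04, 9.55 and 9.14 (0.77, SE 0.15, adjusted p = 0.05, 1 of 9 fits). Serpinb9, for an intracellular inhibitor of granzyme B, rose from 8.05, 8.24 and 8.19 to 8.65, 8.91 and 8.75 (0.61, SE 0.07, adjusted p = 0.00545), and alone of these 5 passed whichever array was left out. The neighbouring serpin gene Serpinb6b rose by 0.85 (adjusted p = 0.0268, 1 of 9 fits) and Nkg7, for a granule membrane protein, by 0.48 (adjusted p = 0.0187, 5 of 9 fits). None of 10 measured markers for CD8, NK or γδ lineages, of 18 listed, was called, and 4 of the 10 lay below the median probe set. Klrd1, Gzmb and Nkg7 were counted with the Th1 and cytotoxic genes and not among these markers. The average of the 10 markers lay at 7.11 to 7.15 in WT and 7.13 in each knockout array, and Cd8a was at -0.08 (-0.20 to 0.05).

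Among 12 Th2 genes 2 rose (16.7%, against 0.694% over all genes), with 0 to 3 called when single arrays were left out and 0 in the 6 arrays alone. Il3, for a haematopoietic growth factor, read 9.31, 8.75 and 8.63 in WT and 9.96, 10.00 and 9.80 in knockout arrays, a 2.03-fold rise (1.02, SE 0.18, adjusted p = 0.0354) that passed in 2 of the 9 fits. Penk, for proenkephalin, rose by 0.47 (adjusted p = 0.0185). Of 23 regulatory T cell genes 4 rose (17.4%, against 0.694% over all genes), with 0 to 6 called when single arrays were left out. Nt5e, for CD73, which makes adenosine from AMP, read 6.59, 6.39 and 7.24 against 8.13, 7.80 and 7.78 (1.16, SE 0.19, adjusted p = 0.0267); WT array 3 lay well above the other WT arrays, and the call held in 1 of the 9 fits, the one without WT array 3. Tigit, an inhibitory receptor gene, rose from 7.97, 7.85 and 7.72 to 8.5, 8.79 and 8.41 (0.72, SE 0.10, adjusted p = 0.014, 6 of 9 fits). Lag3, another, rose by 0.41 (adjusted p = 0.0343, 2 of 9 fits), and Tnfrsf9, for the costimulatory receptor 4-1BB, by 0.80 (SE 0.13, adjusted p = 0.0273, 3 of 9 fits). Dpp4, for CD26, rose by 0.29 (adjusted p = 0.014). With Nt5e, 2 of 11 genes listed for extracellular ATP and adenosine were called (18.2%, against 1.04% over all genes), and in the 6 arrays alone 0. Follicular helper genes went both ways, with 3 of 17 called (17.6%, against 1.04% over all genes). Tnfsf8, for CD30 ligand (0.55, adjusted p = 0.0153), and the ganglioside synthase gene St8sia1 (0.47, adjusted p = 0.0397, 2 of 9 fits) were higher and Id3 lower. With single arrays left out 0 to 3 of these 17 were called, and in the 6 arrays alone 0.

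**Figure D4:**
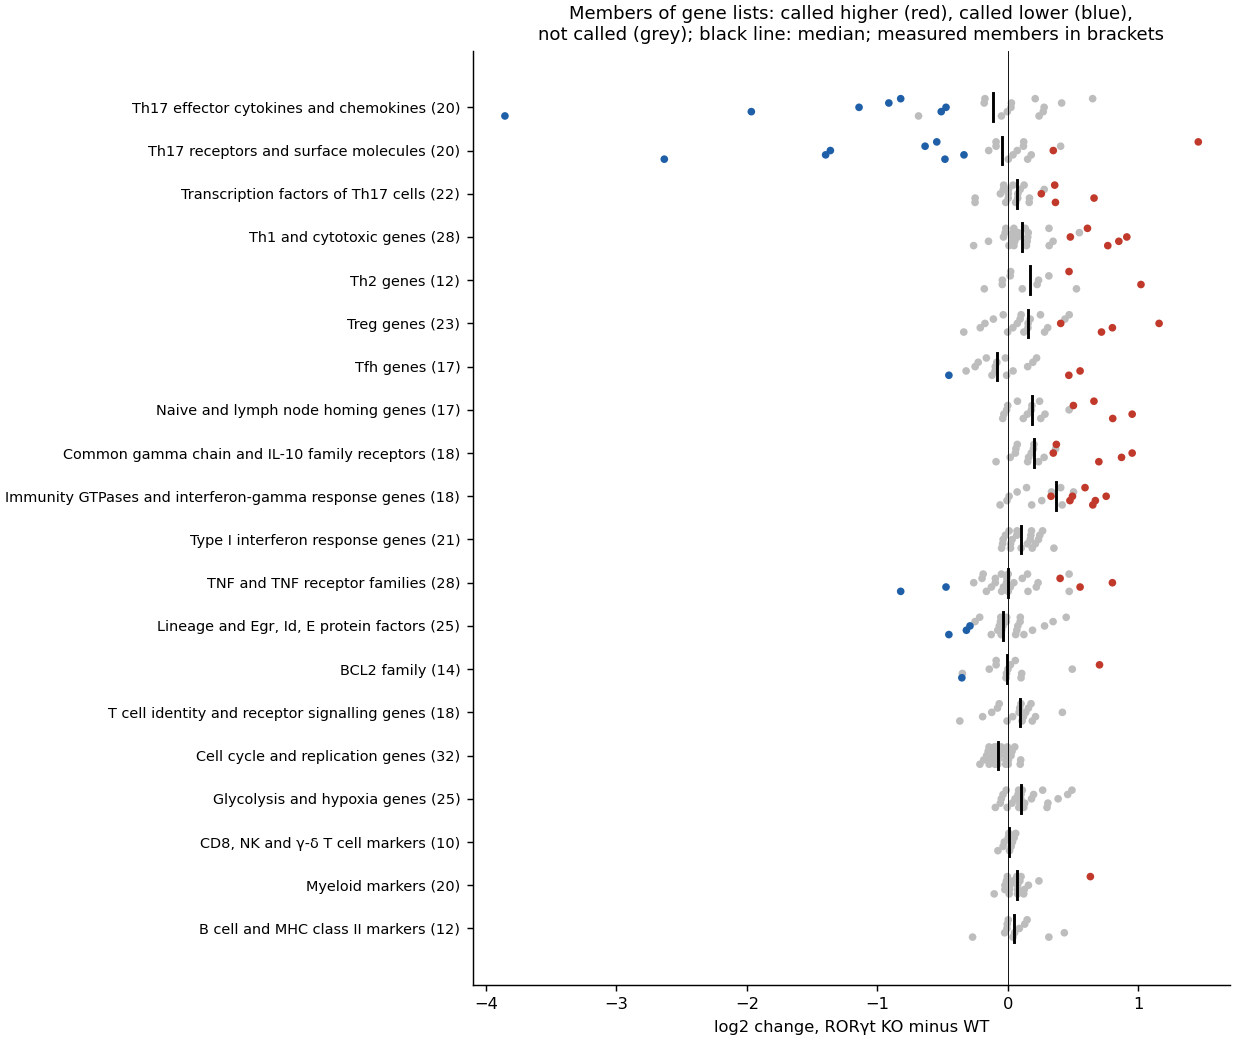
Log2 change between RORγt KO and WT (x axis) of each measured member (points) of 20 gene lists (y axis, members in brackets), with called rises in red, called falls in blue, members not called in grey and the list median as a black line. Th17 cytokines and receptors hold the deepest falls with medians near 0, and the immunity GTPase and interferon-γ response genes lie farthest to the right with a median of 0.37.

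Of 18 genes for receptors of the common γ chain, IL-10 and interferon families 5 rose (27.8%, against 0.694% over all genes) and none fell. Of the 18, 17 had a change above 0, the median was 0.20, and 1 to 5 were called with single arrays left out. Il7r, for the IL-7 receptor α chain that maintains naive and memory T cells, read 9.54, 9.20 and 9.34 in WT and 10.35, 10.42 and 10.16 in knockout arrays (0.95, SE 0.09, adjusted p = 0.00135), a 1.94-fold rise that passed in all 9 fits. Il10ra, for the IL-10 receptor, read 7.82, 7.55 and 7.20 against 8.48, 8.36 and 8.34 (0.87, SE 0.13, adjusted p = 0.0185). Ifngr1, for the IFN-γ receptor, rose from 9.15, 9.05 and 9.0 to 9.71, 10.06 and 9.52 (0.70, SE 0.13, adjusted p = 0.0392, 2 of 9 fits), and Ifnar1, for a type I interferon receptor chain, by 0.37 (adjusted p = 0.0185, 5 of 9 fits). Socs3, for the inhibitor of cytokine receptors that STAT3 induces, rose by 0.54 (adjusted p = 0.0317, 2 of 9 fits). With Il10ra and Il21r it made up the 3 called among 20 IL-6 and STAT3 response genes (15.0%, against 1.04% over all genes).

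Of 18 immunity GTPase and interferon-γ response genes 7 rose (38.9%, against 0.694% over all genes) and none fell. Their median change was 0.37 against -0.0027 over all genes. With single arrays left out 3 to 7 were called, and in the 6 arrays alone 5. As this list, like the others, was chosen with earlier results of these data known, these figures describe it and test nothing. The average level of the 18 lay at 7.91 to 8.0 in WT and 8.26 to 8.34 in knockout arrays. Gbp5, for a guanylate-binding protein, read 8.42, 8.38 and 8.35 in WT and 9.20, 9.14 and 9.06 in knockout arrays (0.75, SE 0.11, adjusted p = 0.0144, 5 of 9 fits). Its genomic neighbour Gbp7 rose by 0.65 (adjusted p = 0.0233, 5 of 9 fits) and the next gene, Gbp3, by 0.48 (adjusted p = 0.0318, 2 of 9 fits). The immunity-related GTPase genes Iigp1 (0.59, adjusted p = 0.0112, 8 of 9 fits) and Irgm2 (0.50, SE 0.06, adjusted p = 0.00527) rose, as did Psmb9, for an immunoproteasome subunit (0.33, adjusted p = 0.00832). Samhd1, for the enzyme that breaks down deoxynucleotides, read 10.62, 10.61 and 10.58 against 11.21, 11.42 and 11.19 (0.67, SE 0.07, adjusted p = 0.00218). Irgm2, Psmb9 and Samhd1 passed in all 9 fits. Near-identical members of these GTPase families can share probes, so single members are less certain than the group. None of 21 type I interferon response genes was called, though 17 of them were above 0 (median 0.10) and their average lay at 7.26 to 7.32 in WT and 7.4 to 7.41 in knockout arrays. With WT 1 and RORγt KO 3 both left out 2 were called. The largest changes included Oas3, for an antiviral enzyme, at 0.27 (adjusted p = 0.0712).

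The 17 naive cell and lymph node homing genes had a median of 0.19, and 2 to 5 were called with single arrays left out. In the fit of all 9 arrays 4 of them rose (23.5%, against 0.694% over all genes) and none fell. Besides Il7r, these were Sesn3, for the sestrin that restrains growth signalling downstream of FoxO, at 10.12, 10.10 and 10.09 in WT and 10.92, 10.96 and 10.83 in knockout arrays (0.80, SE 0.06, adjusted p = 0.000497). Ccr7, for the lymph node homing receptor, read 10.70, 10.23 and 10.31 against 11.13, 11.18 and 10.92 (0.66, SE 0.13, adjusted p = 0.05, 1 of 9 fits). Igfbp4, another insulin-like growth factor binding protein gene, rose by 0.50 (adjusted p = 0.0123). Trp53inp1, a p53 target gene, rose from 8.78, 9.05 and 8.83 to 9.56, 9.93 and 9.51 (0.78, SE 0.11, adjusted p = 0.0185), and of 22 p53 target and cyclin-dependent kinase inhibitor genes it and Sesn3 were called. Genes of survival split: Bcl2l11, for the death-promoting protein Bim, rose from 8.08, 8.06 and 8.33 to 8.71, 8.94 and 8.93 (0.70, SE 0.10, adjusted p = 0.014), while Bcl2l1, for the survival protein Bcl-xL, fell from 8.87, 8.88 and 8.97 to 8.5, 8.55 and 8.61 (-0.35, SE 0.04, adjusted p = 0.01). These were the 2 called of 14 BCL2 family genes. Bcl2l1 passed in all 9 fits and Bcl2l11 in 7, and in the 6 arrays alone neither passed, at an adjusted p = 0.062 for each.

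Of the other 20 largest rises, Neb, for the giant muscle protein nebulin, read 7.20, 7.11 and 7.24 in WT and 8.0, 8.32 and 8.03 in knockout arrays (0.93, SE 0.08, adjusted p = 0.000788) and passed in all 9 fits. So did the uncharacterised BE692007 (0.78, SE 0.06, adjusted p = 0.000627). Ctla2a and Ctla2b, paired genes for inhibitors of cathepsins, rose by 0.95 (adjusted p = 0.0299, 2 of 9 fits) and 0.87 (adjusted p = 0.0212, 6 of 9 fits); Ctla2a read 9.21 in WT array 1 against 8.52 and 8.64 in the others. Mctp2 (0.91, adjusted p = 0.0299), for a membrane protein with C2 domains, Ttc39c (0.81, adjusted p = 0.0129), Serpinb5, for the serpin maspin (0.81, adjusted p = 0.017, at dim levels of 5.24 to 6.36), and Vps37b, for an ESCRT-I subunit (0.80, adjusted p = 0.0351), passed in 4, 7, 6 and 3 of the 9 fits. Mir1948, a microRNA gene next to Ttc39c, rose by 0.77 (adjusted p = 0.0397), and passed in 2 of the 9 fits. It was the single call among 483 microRNA genes (0.207% against 1.04% of all genes). Of the 483, 327 lay below the median probe set, so the lower share cannot be read as fewer changes in microRNAs. The number of microRNA genes called was 0 to 6 with single arrays left out and 8 with WT 1 and RORγt KO 3 both left out. The 6 levels of Mir1948 were 6.34, 6.29 and 6.01 in WT and 6.91, 7.30 and 6.74 in knockout arrays.

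A pair of T cell receptor α segments moved in opposite directions. Trav12-2 read 10.48, 10.41 and 10.45 in WT and 11.27, 11.48 and 11.24 in knockout arrays (0.88, SE 0.06, adjusted p = 0.00023), and Trav7-4 9.61, 9.46 and 9.40 against 8.77, 8.75 and 8.79 (-0.71, SE 0.06, adjusted p = 0.000788). Each group was tight, and both passed whichever array was left out. Averaging the 6 probe sets of Trav12-2 gave 0.15 and the 3 of Trav7-4 gave -0.05, so their probe sets disagreed. Such segments have near-identical copies, and which copies a probe set detects is not given here. Of 8 variable segments measured, these 2 were called.

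Changed genes were at times neighbours. Of 21994 genes placed in the RefSeq gene order 229 were called, and 17 pairs of direct neighbours were called together, 15 in the same direction. How often neighbours change together among all placed genes was not counted, so these counts are a description. Falling pairs included Il17a with Il17f, Il1r1 with the IL-36 receptor gene Il1rl2 (-0.40), and Tnf with Lta. Rising ones included Gbp5 with Gbp7 and Gbp7 with Gbp3, Serpinb6b with Serpinb9, Parp14 (0.32) with Parp9 (0.39), both for ADP-ribosyltransferase family proteins, and Gimap4 (0.38) with Gimap6 (0.52), for GTPases of lymphocytes. The 2 opposite pairs were Il23r with Il12rb2, which lie next to each other, and Trav7-4 with Trav12-2. Il1rl2, Parp14, Parp9, Gimap4 and Gimap6 were named for their position after their values were seen.

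Many lists held no call. With 1.04% of all genes called, lists of this length can hold none without differing from other genes. None was called among 32 cell cycle and replication genes (median -0.08), 18 T cell identity and receptor signalling genes (0.10), 16 NF-κB genes (0.01), 23 Swi/Snf subunits (-0.02), 33 histone methylation and acetylation enzymes (-0.04), 25 glycolysis and hypoxia genes (0.10), 28 cholesterol and fatty acid genes (-0.02), 24 amino acid and ATF4 genes (-0.05), 22 stress response genes (-0.05) and 86 ribosomal protein genes (-0.01). Over all genes limma gave 2821 with an unadjusted p under 0.05, 1349 higher and 1472 lower. Several of these lists had calls under other settings: with WT 1 and RORγt KO 3 both left out, 2 glycolysis, 3 amino acid, 2 cholesterol, 3 stress response, 1 NF-κB and 1 histone enzyme gene were called. Slc2a3, for a glucose transporter, read 9.64 in WT array 1 against 8.92 and 8.52 in the others and 9.66, 9.73 and 9.07 in knockout arrays (0.46, interval -0.20 to 1.12). Of 25 genes of T cell activation 2 fell, Crtam and Egr2. Of 96 respiratory chain genes 1 was called, which at 1.04% equals the share over all genes. It was Sdhd, for a succinate dehydrogenase subunit, which fell (-0.25, adjusted p = 0.024, 4 of 9 fits).

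Markers of other cell types gave few calls. Of 20 myeloid markers, Ly6c2, for Ly6C, which T cells also express, rose by 0.63 (SE 0.10, adjusted p = 0.0202), and the others did not pass, with Cd68 at 0.24 (adjusted p = 0.108). The average of the 20 was 6.98 to 7.02 in WT and 7.07 to 7.09 in knockout arrays. None of 12 B cell and MHC class II, 6 erythroid (of 13 listed) and 12 stromal markers was called. Of these, 3, 4 and 8 lay below the median probe set, as did 13 of the 20 myeloid markers. With 1.04% of all genes called, such short lists can hold no call. Ighm, of the B cell list, was bright at 10.32, 10.67 and 10.18 in WT and 10.75, 10.59 and 10.77 in knockout arrays (0.31, adjusted p = 0.31). H2-Ab1 was at 0.43 (adjusted p = 0.268, interval 0.10 to 0.77). B cell markers averaged 7.61 to 7.96 in WT and 7.82 to 7.92 in knockout arrays, with overlap.

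The RORγt KO profile was then set beside that of the SRG3 cKO, which shares the WT arrays. SRG3 cKO against WT gave 116 changed genes (0.523% of those tested), and the direct comparison of RORγt KO with SRG3 cKO 283 (1.28%). Of the 230 genes called in RORγt KO, 104 also differed from SRG3 cKO in the direct test, 67 of the rises and 37 of the falls. Each did so in the same direction as against WT. The direct test reuses the RORγt KO arrays that gave the 230 calls, so count and direction were partly set beforehand. Among genes that fell in RORγt KO the median change in SRG3 cKO was -0.13, and among those that rose 0.12. These medians share the WT arrays by which the genes were chosen. The falls of Il17a, Il23r and Il17f were deeper in RORγt KO, with direct log2 changes against SRG3 cKO of -1.67, -1.75 and -1.12 (adjusted p = 0.0074, 0.00068 and 0.0044).

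Several genes that changed in RORγt KO differed from SRG3 cKO in the direct test. Furin read 11.55, 11.40 and 11.34 in SRG3 cKO arrays (0.10 against WT), and the direct change was -1.46 (adjusted p = 0.00012). Il1r1 read 8.61, 8.99 and 8.76 there, with a direct change of -1.37 (adjusted p = 0.00017), and Ccr6 8.97, 9.07 and 9.14, with -0.65 (adjusted p = 0.00077). Il7r at 9.28, 9.26 and 9.24 and Il12rb2 at 10.45, 10.10 and 10.21 were likewise lower than in RORγt KO, by 1.05 (adjusted p = 0.00068) and 1.22 (adjusted p = 0.00077). Against WT, Il7r was at -0.10 and Il12rb2 at 0.24 in SRG3 cKO. Ahr lay at 9.21, 9.22 and 8.93 in SRG3 cKO, below each WT array (-0.29, SE 0.08) and 0.95 below RORγt KO (adjusted p = 0.00057).

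For other genes the direct test did not separate the genotypes. Igfbp7 changed by -0.61 in SRG3 cKO and differed by -0.09 directly (adjusted p = 0.68), Sesn3 by 0.68 and 0.12 (adjusted p = 0.54), Trp53inp1 by 0.75 and 0.03 (adjusted p = 0.95) and Samhd1 by 0.50 and 0.17 (adjusted p = 0.37). Of the 27 genes called against WT in both comparisons, 26 changed in the same direction, and since the comparisons share their WT arrays this count has no test. The exception was Il3, at 7.47, 7.09 and 7.67 in SRG3 cKO arrays, below WT by 1.49 and below RORγt KO by 2.51 (adjusted p = 0.00035). Smarcc1, which encodes SRG3, was at 10.12, 10.04 and 10.19 in RORγt KO and 10.13, 10.32 and 10.39 in WT arrays (-0.17, interval -0.37 to 0.04).

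The counts depended on which arrays and how many features entered the fit. Restricting the test to genes brighter than the median probe set gave 348 calls among 12172 genes, while testing all 41345 probe sets gave 128. Without WT array 2 or RORγt KO arrays 1 or 2 45, 46 or 47 genes were called. Genes that passed in every one of the 9 fits without 1 array included Il17a, Sesn3, Il17f, Il23r, Il1r1, Furin, Ccr6, Tnf and Il12rb2.

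**Figure D5:**
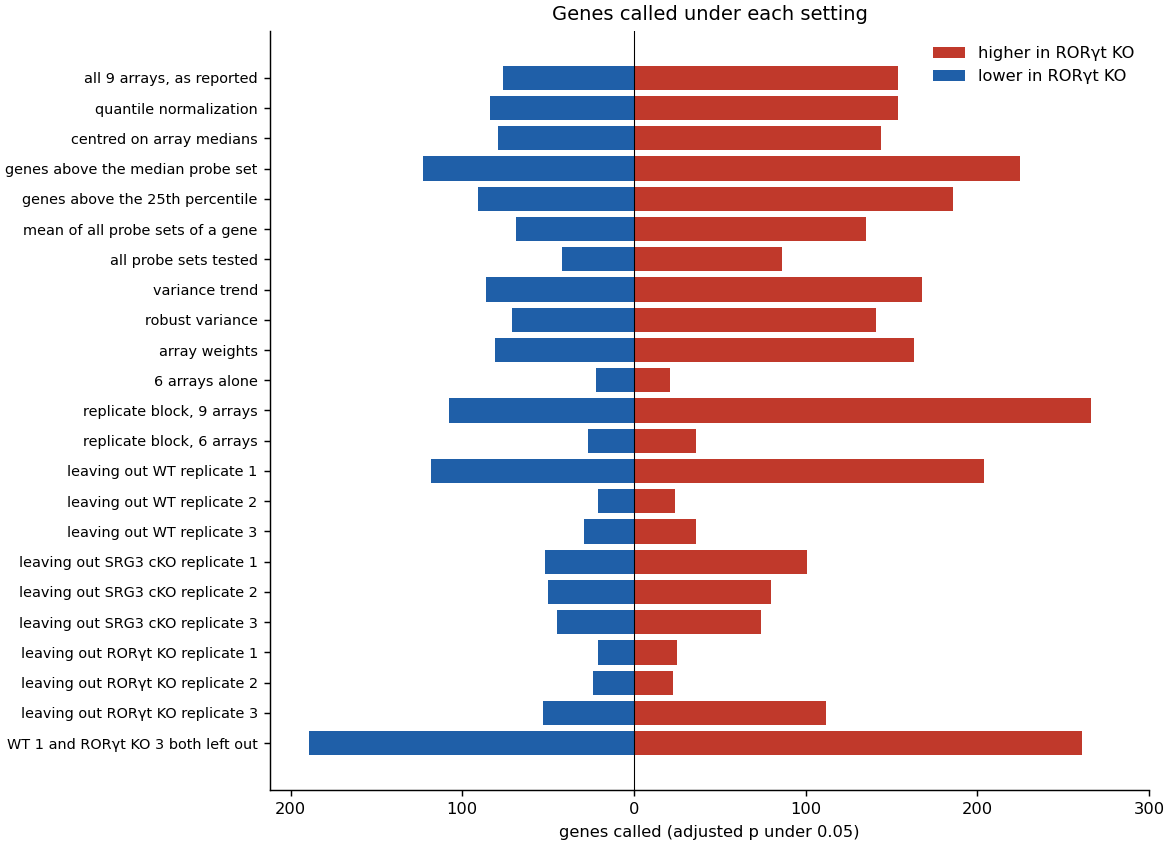
Number of genes called at an adjusted p under 0.05 (x axis; rises to the right in red, falls to the left in blue) for the reported fit and each of 22 alternatives (y axis). Calls fall to 43 with the 6 arrays alone and 45 to 47 without WT 2, RORγt KO 1 or RORγt KO 2, and reach 450 when WT 1 and RORγt KO 3 are both left out.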

How the data were processed

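The values used were log2 intensities per probe set as deposited by the authors in the series' value table. The method of background correction, summarisation and normalization was not given in the sources used here. The labels' protocols state Trizol RNA and biotin labelling of fragmented sense cDNA. Of 41345 probe sets, those with several gene symbols (1814) or without any (16010) were left out, which kept 23521. Symbols were updated by gene ID (23328 matched) with a RefSeq table of GRCm38.p6, used for names and gene order. Where a gene had several probe sets (1082 of 22180 genes) the one with the highest mean over all 9 arrays was taken. The targeted gene's own transcript is not reported here.

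Groups were compared with limma 3.58.1 (lmFit and eBayes) in R 4.3.3 in a single fit of all 9 arrays, with Benjamini-Hochberg adjustment over all genes and a threshold of 0.05. "Rose", "fell" and "called" refer to that threshold. "Passed in n of 9 fits" counts the fits that left out 1 array. Folds are linear ratios of the deposited intensities, SE is the fit's standard error, and intervals are 95%. The fitting code was run on simulated independent normal values as a check of the code alone. Those values held no differences between whole arrays, so they say nothing of how secure the calls are. The text names the 20 largest rises and 20 largest falls, called members of 40 gene lists and a set of T helper genes. For lists with fewer than 2 calls, the largest changes are named in some cases only. Called list members not described above were Gpr18 (0.52, adjusted p = 0.037, 2 of 9 fits), Tnfrsf26 (0.40, adjusted p = 0.0212, 5 of 9 fits) and Pik3r5 (0.39, adjusted p = 0.0473, 1 of 9 fits), all of which rose. Other genes are said to be chosen after their values were seen. Lists were described by counts and medians, without a set test: 829 of 917 members were measured, and 16 of 46 lists and symbol classes had no call. The lists and members were chosen with earlier results of these data known. Alternatives covered normalization, centring, dim probe set filters, probe set choice, variance model, array weights, arrays in the fit and the replicate block. Promoter windows and motifs were searched in a RefSeq promoter table.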

Additional observations from a re-analysis of the deposited data

How the results depend on the processing

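The 230 calls (154 rises, 76 falls) lay within 1.5 times under quantile normalization, median centring, the 25th percentile filter, averaged probe sets, trended or robust variance and array weights. Outside that range were the filter at the median probe set (348 calls, 123 falls), all probe sets tested (128, 86 rises, 42 falls), the 6 arrays alone (43, 21 rises, 22 falls), and WT array 1 and RORγt KO array 3 both left out (450, 261 rises, 189 falls). Leaving out 1 array gave 45 to 322 calls, 23 to 204 rises and 21 to 118 falls. A replicate block on the array number gave 374 calls (266 rises, 108 falls) with 9 arrays and 63 (36 rises, 27 falls) with 6. Deviations of same-numbered WT and RORγt KO arrays correlated at 0.215, -0.00527 and 0.186, and the labels state no pairing, so the arrays share a number and were not taken as paired. Not every array correlated best with its own number: WT array 2 did so with RORγt KO array 3 (0.131). Of 84 named called genes, 83 kept their call with the block in 9 arrays, 27 in the 6 arrays alone and 31 without WT array 2 or without RORγt KO array 1. No called gene changed sign, but rises were no longer more than falls in the 6 arrays alone and without RORγt KO array 2 (23 rises, 24 falls). With the block in 9 arrays, Il10 (higher, adjusted p = 0.00236) and Csf2 (lower, adjusted p = 0.0157) passed. Fewer genes tested or fewer arrays are part of several settings; further causes were not tested. Signal limits dim genes such as Il22, within the lowest 0.207% of genes by mean.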

Other observations

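Called genes outside the lists, named here after their values were seen, included the following; how often partners of a complex would be called together was not tested. Calcrl and Ramp1, which together form the receptor for calcitonin gene-related peptide, both fell in RORγt KO cells. Calcrl read 9.42, 9.62 and 9.38 in WT and 8.88, 8.87 and 8.96 in knockout arrays (log2 change -0.57, SE 0.10, limma adjusted p = 0.0343), and Ramp1 8.16, 8.31 and 8.36 against 7.96, 7.82 and 7.94 (-0.37, SE 0.06, adjusted p = 0.0262). Ramp3, for an alternative partner of the same receptor, rose by 0.32 (adjusted p = 0.0469), and each of the 3 passed in 2 of the 9 fits with an array left out. Anxa2 and S100a10, whose products bind each other at membranes, rose by 0.66 (adjusted p = 0.0411, 2 of 9 fits) and 0.36 (adjusted p = 0.0129, 6 of 9 fits). Il17ra, for the receptor of IL-17A, rose from 9.14, 9.02 and 9.04 to 9.46, 9.57 and 9.42 (0.41, adjusted p = 0.0135, 5 of 9 fits).

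The p38 kinase gene Mapk14 fell by 0.29 (adjusted p = 0.0281, 3 of 9 fits), and the kinase genes Map2k6 and Map3k5 rose, Map2k6 by 0.46 (adjusted p = 0.0202, 6 of 9 fits) and Map3k5 by 0.32 (adjusted p = 0.0185, 5 of 9 fits). Stx11, for a syntaxin of granule release, fell from 10.20, 10.10 and 10.14 to 9.59, 9.64 and 9.59 (-0.54, SE 0.04, adjusted p = 0.000391), and Stx7, for an endosomal syntaxin, rose from 8.39, 8.38 and 8.41 to 8.73, 8.76 and 8.72 (0.34, SE 0.04, adjusted p = 0.00318). Both passed whichever array was left out. Mov10, for an RNA helicase, rose from 8.40, 8.20 and 8.27 to 8.83, 8.81 and 8.77 (0.52, SE 0.05, adjusted p = 0.00168), also in all 9 fits, and the transcript AW112010 from 9.75, 9.73 and 9.63 to 10.40, 10.64 and 10.26 (0.73, SE 0.08, adjusted p = 0.00527). Cblb, for a ubiquitin ligase that restrains T cell activation, rose by 0.73 (adjusted p = 0.0267) and passed in 3 of the 9 fits.

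In a fit of all 41345 probe sets, 128 were called, 86 higher and 42 lower. Of these, 59 were among the 17824 without a single gene symbol (0.331%), 47 higher and 12 lower in RORγt KO.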
